A study of Drosophila melanogaster with 2 samples.

Results

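The peaks described here are 2190 regions of the Drosophila melanogaster genome that were found with extra macrochaetae (emc) fused to eGFP in both replicates of a chromatin immunoprecipitation experiment, but whose signal lay just under that of the weakest peak in the authors' final list, which was cut by irreproducible discovery rate (IDR). They are called sub-threshold peaks below. They were chosen by measured values: a signal in the pooled list of at least 40 and below 62.7, the lowest signal of the IDR list, no overlap with an IDR peak, and an overlap of 1 bp or more with a peak in each replicate. Of the 29400 pooled peaks, 2481 lay in that range of signal, 82 of these overlapped an IDR peak, and 2190 of the remaining 2399 were in both replicates (91.3%, 95% interval 90.1 to 92.4). The IDR list, to which they are set, held 1865 peaks. The pooled and replicate lists are relaxed ones that include background, so an overlap in both is weak evidence for any single peak. The authors' −log10 q-value of the sub-threshold peaks was 0.976 at the lowest, 1.23 at the first quartile, 1.69 at the median and 2.93 at the highest. For IDR peaks the lowest was 2.79.

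The samples were whole embryos of 0 to 24 h, males and females together, of 1 transgenic line that carries emc with GFP at its C-terminus, and the precipitating antibody was against GFP. They form 1 group of 2 biological replicates, numbered 1 and 3, so there is no comparison between conditions. Separate embryo collections are not described in the labels, so the spread between replicates may be partly technical. The peak lists give no read depth. The embryos held many cell types and stages at once, so a weak peak in all cells and a strong peak in few cells cannot be told apart. All coordinates are dm6 (Release 6) and 1-based, and intervals are 95% intervals (Clopper-Pearson for a share, Newcombe for a difference between shares) that cover counting error only. Peaks of 1 pair of libraries are not independent replicates, and no p-value was computed.

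The protein is of the helix-loop-helix (HLH) family and dimerizes, but it lacks the basic stretch with which its bHLH relatives touch DNA. It pairs with relatives such as Daughterless and keeps them from their sites, and in the fly it is known for its part in sensory organ, wing vein and muscle development. A ChIP peak of emc therefore need not mark a site that emc itself touches. The IDR procedure ranks the peaks of replicates and sets a cutoff from how well the ranks agree. Here 1865 pooled peaks lay at or above the lowest IDR signal, as many as the IDR list held. Of the IDR peaks, 1854 overlapped a peak in both replicates, and their replicate 1 ranks reached 29659. The upper bound thus separates the sub-threshold from the IDR peaks by pooled signal, not by the rank agreement of each peak.

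The sequences of the following windows show the range of places the sub-threshold peaks occupied. Each reaches up to 100 bp to either side of the summit on the forward strand of the Release 6 assembly (RefSeq), with stretches annotated as UTR left out, and capitals mark matches on either strand to 7 motifs that are spelled out with their counts further on. Bicra (chr3R:29063625-29063802, signal 62.4) and DnaJ-H (chr2L:13165064-13165264, signal 55.8) were promoter peaks that ranked among the highest in both replicates. CG31957 (chr2L:3872459-3872617, signal 62.5) was a promoter peak with the DRE sequence, and CG18135 (chr3L:18996311-18996511, signal 53.5) was the intronic peak of best rank. The intergenic peak of best rank (chr2L:1628249-1628449, signal 55.9) had RFeSP, the Rieske iron-sulphur protein of respiratory complex III, as its nearest protein-coding gene. CG8319 (chr3R:9628238-9628438, signal 44.7) was the coding exon peak of best rank, and the intronic peak of siz (chr3L:21037442-21037642, signal 62.8), an Arf exchange factor, was an IDR peak next above the bound. CG31957 and CG8319 were added after their values were seen.
Bicra: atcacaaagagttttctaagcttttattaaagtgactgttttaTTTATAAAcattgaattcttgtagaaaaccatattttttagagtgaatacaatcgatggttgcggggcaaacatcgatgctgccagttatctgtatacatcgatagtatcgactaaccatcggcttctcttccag
CG31957: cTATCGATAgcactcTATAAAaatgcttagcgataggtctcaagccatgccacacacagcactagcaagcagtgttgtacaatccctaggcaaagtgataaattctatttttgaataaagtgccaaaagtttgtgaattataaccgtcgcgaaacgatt
DnaJ-H: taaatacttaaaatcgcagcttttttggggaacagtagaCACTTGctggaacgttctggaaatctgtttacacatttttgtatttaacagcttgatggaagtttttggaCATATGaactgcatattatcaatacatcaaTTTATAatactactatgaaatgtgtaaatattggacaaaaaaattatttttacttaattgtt
CG18135: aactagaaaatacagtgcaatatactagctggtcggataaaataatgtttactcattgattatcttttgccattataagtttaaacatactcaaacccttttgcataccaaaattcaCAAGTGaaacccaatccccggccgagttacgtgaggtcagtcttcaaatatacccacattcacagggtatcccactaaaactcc
RFeSP: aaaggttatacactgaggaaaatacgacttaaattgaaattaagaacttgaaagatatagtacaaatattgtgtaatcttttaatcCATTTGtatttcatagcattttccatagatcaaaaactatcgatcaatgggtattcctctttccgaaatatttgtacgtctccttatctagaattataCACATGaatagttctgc
CG8319: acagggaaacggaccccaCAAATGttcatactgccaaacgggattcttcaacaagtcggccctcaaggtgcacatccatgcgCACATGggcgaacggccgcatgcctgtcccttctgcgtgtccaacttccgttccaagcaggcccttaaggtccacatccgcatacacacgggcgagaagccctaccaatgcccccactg
siz: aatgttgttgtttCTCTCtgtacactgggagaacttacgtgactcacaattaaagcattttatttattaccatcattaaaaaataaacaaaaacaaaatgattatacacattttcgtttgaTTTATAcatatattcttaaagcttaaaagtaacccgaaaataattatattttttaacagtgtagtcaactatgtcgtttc

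The windows differ in base composition. The full window, with UTR, was 57.7% GC at the coding peak of CG8319, 35.8% at Bicra, 27.9% at DnaJ-H, 28.9% at RFeSP and 25.9% at the IDR peak of siz. The DRE at CG31957 lay a few bases from a TATAAA, and the Bicra window held a TATAAA on each strand, overlapping.

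Just inside the bound of 62.7411, which is the signal of the IDR peak at APP-BP1, lay the sub-threshold peak at MED17, a Mediator subunit gene, at 62.7358. It had a signal of 33.3 in replicate 1, where it ranked 1294, and of 24.1 in replicate 3, where it ranked 4629. The IDR peak at APP-BP1, a subunit of the NEDD8-activating enzyme, had replicate signals of 55.3 and 100.1 and ranks of 485 and 260, in the same order of replicates. The next IDR peaks above were at CG13244 (signal 62.7571, ranks 17288 and 1104) and siz (62.7625, ranks 4426 and 1254). At the lower end, the weakest sub-threshold peaks lay in an intron of Synd, the syndapin gene (40.0071), and nearest to CG18577 (40.0031). Peaks in both replicates just under the floor were at sgl (39.9945), gbb (39.9874) and Wdr62 (39.9859).

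The rule used the signal, so the values in the replicates are given as a description. In replicate 1 the sub-threshold peaks had a signal of 10.7 at the lowest, 20.3 at the median and 50.9 at the highest, and in replicate 3 of 10.6, 27.2 and 57.4. IDR peaks had medians of 40.7 in replicate 1 and 55.5 in replicate 3, and ranges that overlapped those of the sub-threshold peaks in both. Within their replicate the sub-threshold peaks ranked from 579 to 29877 in replicate 1 (median 4320) and from 854 to 29325 in replicate 3 (median 3627.5). Each replicate list held 30000 peaks.

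**Figure D1:**
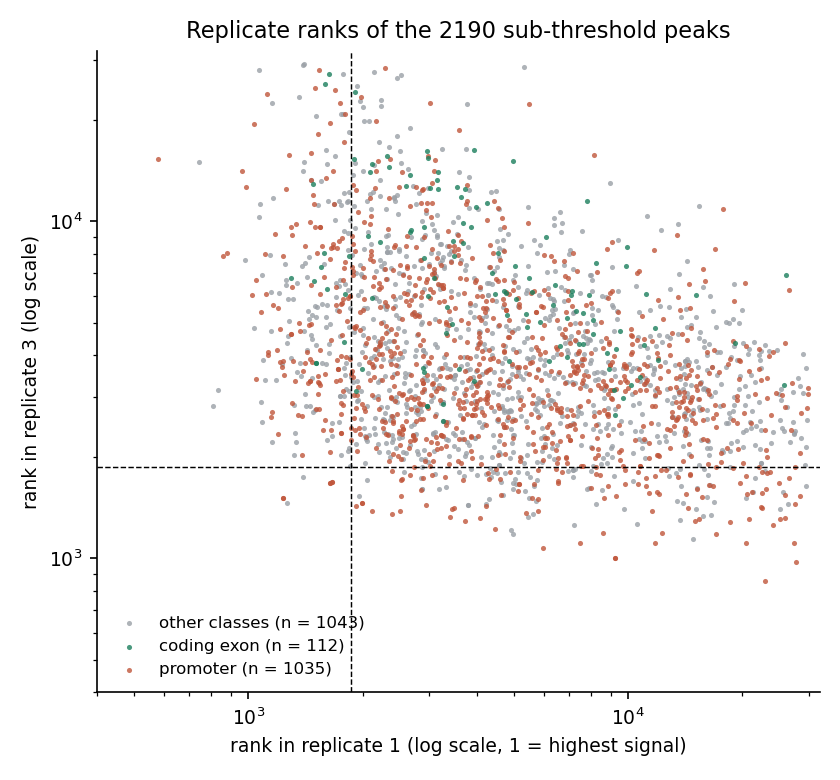
Rank of each of the 2190 sub-threshold peaks in replicate 1 (x axis) and in replicate 3 (y axis), both on log scales, where 1 is the highest signal; dashed lines mark rank 1865, the number of IDR peaks. The points form a band from the upper left to the lower right, and 8 of them lie to the left of the vertical and below the horizontal line at once.

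Few of these peaks stood high in both replicates, and the upper bound on pooled signal works against such peaks. The top 1865 ranks held 279 of them in replicate 1 (12.7%), 200 in replicate 3 (9.13%), 8 in both (0.365%), and 1719 were outside them in both replicates (78.5%). For IDR peaks the shares were 82.3%, 85.7%, 70.1% and 2.14%. Beyond rank 10000 lay 472 sub-threshold peaks in replicate 1 (21.6%) and 178 in replicate 3 (8.13%), against 27 IDR peaks in replicate 1 (1.45%) and 0 in replicate 3. In at least 1 replicate 67.6% lay beyond rank 5000 and 29.5% beyond rank 10000, against 4.02% and 1.45% of IDR peaks. Signal was higher in replicate 3 for 1568 of 2190 (71.6%), with a median log2 ratio of replicate 3 to replicate 1 of 0.43, against 0.44 for IDR peaks. Across the 2190 peaks the Spearman correlation of the signals was -0.344, against 0.622 across 1854 IDR peaks. The pooled signal of the sub-threshold peaks was confined to a narrow range by the rule. The rank shares and this correlation, and their distance from those of IDR peaks, are therefore a description of peaks so chosen.

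The sub-threshold peaks with the best ranks in both replicates were few. CG18135 ranked 1265 in replicate 1 and 1457 in replicate 3. A pair of peaks at Bicra, which encodes a subunit of a Brahma chromatin remodelling complex, overlapped 1 peak in each replicate, ranked 1232 and 1511. Another pair lay inside DnaJ-H, a co-chaperone gene, between its start and that of Sirt1, a protein deacetylase gene. It likewise overlapped 1 peak in each replicate, ranked 1645 and 1677. CG13255 ranked 1662 and 1685. In all, 70 of the 2190 shared a replicate peak with another of them and the set made up 2155 separate loci, so neighbours of this kind are not separate observations.

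The other peaks of highest pooled signal also differed between the replicates. CG32687 had 17.9 in replicate 1 and 38.9 in replicate 3, and the peak between snf, a spliceosomal protein gene, and Cdk7, a kinase of transcription factor TFIIH, had 20.3 and 39.01. The intronic peak of kirre, an immunoglobulin-type adhesion protein of myoblast fusion, had 25.1 and 36.9, and the promoter peak of hts, the adducin gene, had 27.4 and 43.8. All of these were higher in replicate 3, and MED17 was the exception among the 6 peaks of highest signal. The remaining 1, with 24.2 and 38.9, had Esyt2 as the nearest protein-coding gene at 8072 bp but lay within 500 bp of U6 snRNA genes.

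The genomic classes of the sub-threshold peaks were those of the IDR peaks with fewer promoters and more coding exons. Starts of genes for proteins and for non-coding RNA were counted, and a summit within 500 bp of 1 was called a promoter summit, which held for 1035 of 2190 sub-threshold peaks, 47.3% (45.2 to 49.4), against 1136 of 1865 IDR peaks, 60.9%. The difference was -13.7 percentage points (-16.7 to -10.6). Coding exons farther from a start held 112 sub-threshold summits, 5.11% (4.23 to 6.12), against 8 IDR summits, 0.429%, a difference of 4.69 points (3.74 to 5.71). Introns held 684 (31.2%), against 529 IDR summits (28.4%), and the interval of that difference, 0.0402 to 5.68 points, nearly reached 0. Of summits outside promoters, introns held 59.2%, against 72.6% of IDR summits, a difference of -13.3 points (-17.6 to -8.98). Intergenic sequence held 275 (12.6%), against 162 (8.69%), a difference of 3.87 points (1.97 to 5.75). The small classes were 28 summits in 5' UTRs, 29 in 3' UTRs and 27 in non-coding exons, against 10, 11 and 9 IDR summits. In the 5' UTR of Ask1, a stress kinase gene, the best ranked of that class had 37.4 in replicate 1 and 30.3 in replicate 3. The best ranked 3' UTR summit lay in MESK2, with CG10494 as the nearest protein-coding start, and had 28.9 and 32.4. Among non-coding exons, that of a U2 snRNA gene near kek4 had 24.3 and 36.3, and that of a long non-coding RNA near Thor, the 4E-BP gene, had 25.4 and 27.8.

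**Figure D2:**
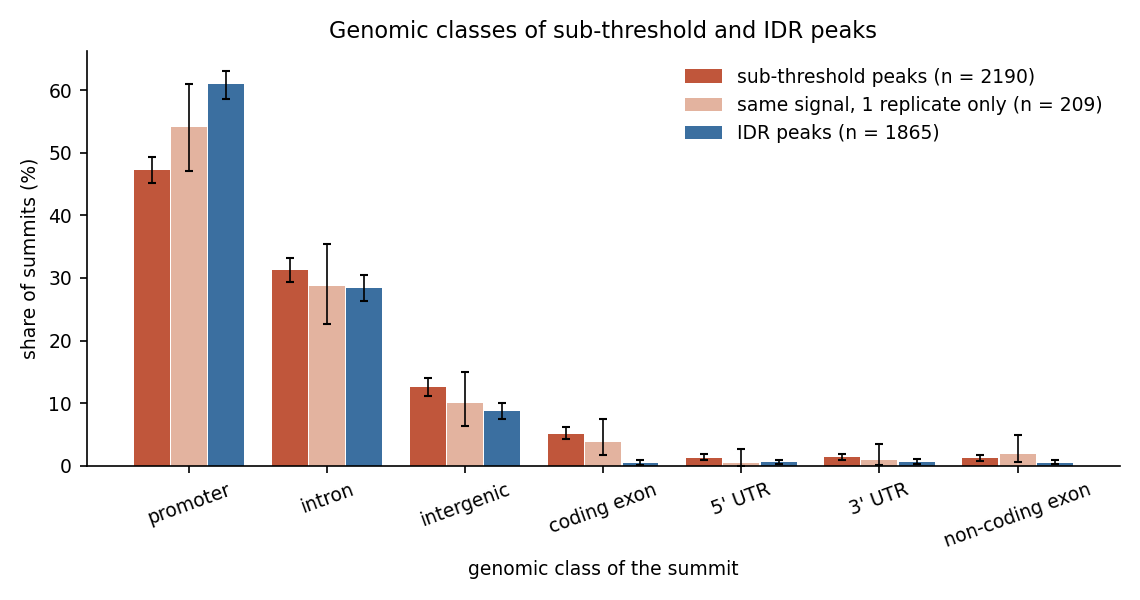
Share of summits (y axis, %) in each of 7 genomic classes for sub-threshold peaks, peaks of the same signal found in 1 replicate only, and IDR peaks; bars are shares and lines are exact 95% intervals. Sub-threshold peaks had 47.3% of summits at promoters against 60.9% for IDR peaks, and 5.11% in coding exons against 0.429%.

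The difference was present against IDR peaks of lower signal too. The 932 IDR peaks of lowest signal, from 62.7 to 94.1, had 57.4% of summits at promoters, a difference (sub-threshold minus IDR) of -10.1 points (-13.9 to -6.32), and 0.429% in coding exons. Against these, the intron shares differed by 0.332 points (-3.26 to 3.82), an interval that holds 0. A further 209 peaks of the same range of signal overlapped no IDR peak and were in 1 replicate only, 18 in replicate 1 and 191 in replicate 3. The sub-threshold peaks had 6.81 points fewer promoter summits than these (-13.7 to 0.279), and their coding share of 5.11% stood beside 3.83%, with intervals that overlap. Both comparisons had intervals of the difference that hold 0, the second from -2.36 to 3.41 points.

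Within the sub-threshold peaks the classes shifted with signal. From signal 40 to 45, 45 to 50, 50 to 55 and 55 to 62.7, with 814, 549, 390 and 437 peaks, the promoter shares were 42.0%, 50.6%, 47.4% and 52.6%. The coding exon shares over the same steps were 9.83%, 3.64%, 2.82% and 0.229%, from 80, 20, 11 and 1 summits. Of the 8539 weaker peaks in both replicates, 27.8% had promoter summits and 20.9% coding exon summits. The highest step, 55 to 62.7, thus had a coding share whose interval (0.00579 to 1.27) held the 0.437% of the IDR peaks in both replicates below signal 73.6, and the lowest step had a lower limit of 7.87%. Its promoter share also had an interval (47.8 to 57.4 at the highest step) that held the 56.3% of the same IDR peaks. The interval of the lowest step, 38.6 to 45.5, did not hold it.

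**Figure D3:**
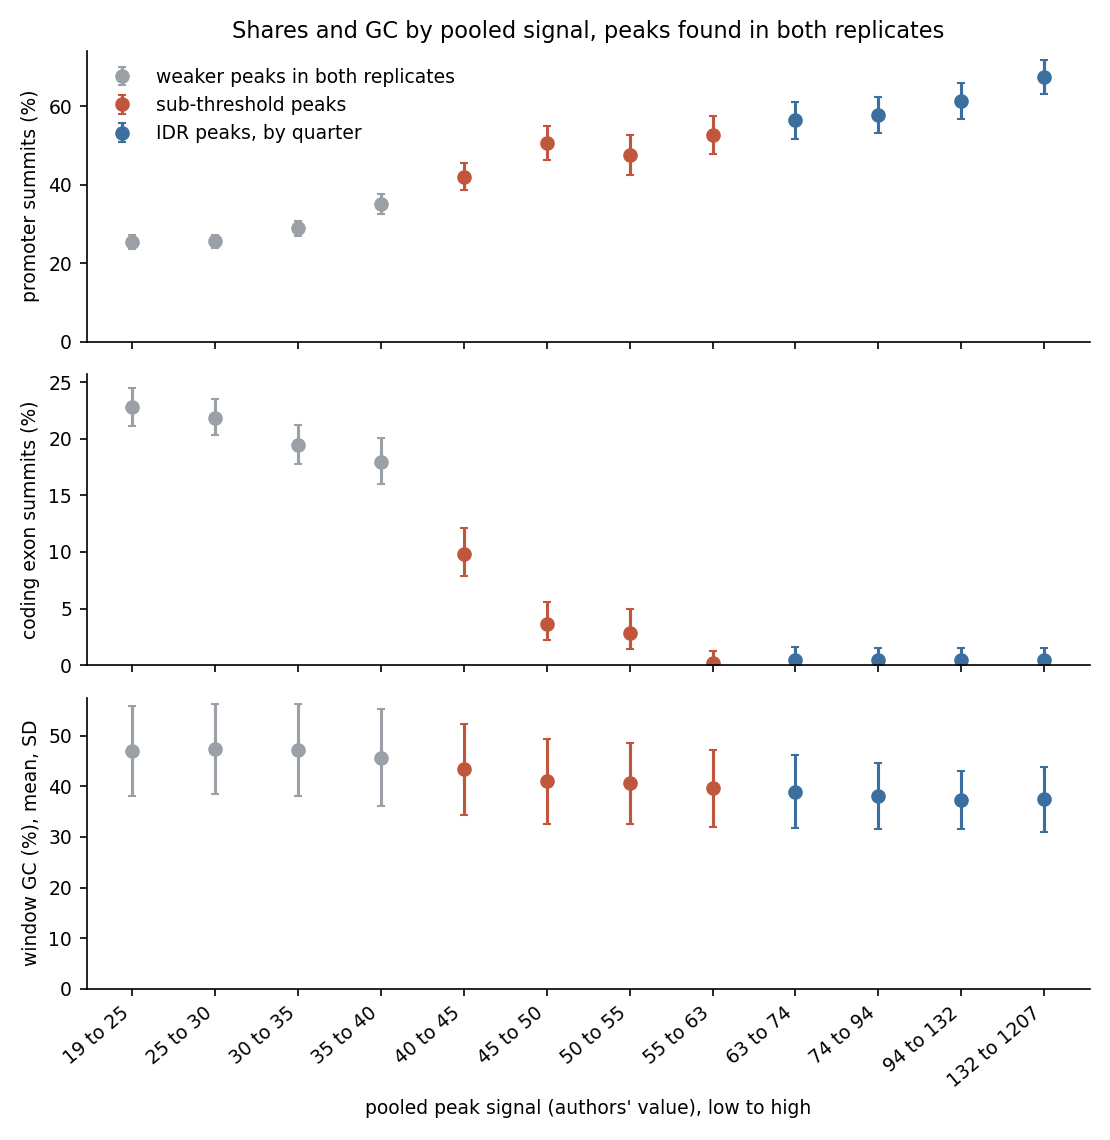
Promoter share, coding exon share (both %, with exact 95% intervals) and GC of the window around the summit (%, mean and SD) of peaks found in both replicates, against pooled signal from low to high; grey points are weaker peaks, red points sub-threshold peaks and blue points IDR peaks in 4 groups of rising signal. The coding share was 9.83% at signal 40 to 45 and 0.229% at 55 to 62.7, and the promoter share was 42.0% and 52.6%.

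As in the other sets, the coding exon peaks had a higher mean GC than the other classes. They lay in 110 genes, of which CG8319 and RpL8, a ribosomal protein gene, held 2 each, and the peaks of CG8319 shared 1 peak in each replicate. Windows of 100 bp to either side had 50% GC or more at 90.2% of the 112 summits, and averaged 56.7% ± 5.41 (SD over peaks, n = 112), against 39.2% ± 7.06 for the 684 intronic sub-threshold peaks. Coding exon windows averaged 56.1% ± 6.10 at 1788 weaker peaks in both replicates. They averaged 59.5% ± 6.57 at 8 peaks of the same signal in 1 replicate and 49.9% ± 10.3 at 8 IDR peaks. Of the 112 peaks 60 were higher in replicate 3, and the median log2 ratio of replicate 3 to replicate 1 was 0.09, against 0.43 for all sub-threshold peaks. Their median rank was 3895 in replicate 1 and 6141 in replicate 3, against 4320 and 3627.5 for all sub-threshold peaks. Among sub-threshold peaks the ratio was lower where GC was higher, with a Spearman correlation of -0.215 across 2190 peaks of the same pair of libraries, and it was -0.322 across 1854 IDR peaks. The part of base composition in the class shares was not tested. Over all classes GC averaged 41.5% ± 8.54 for sub-threshold peaks, 37.9% ± 6.55 for IDR peaks and 47.0% ± 9.06 for weaker peaks in both replicates, and the 6 chromosomes have 42.2%.

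At promoters, the summits lay differently around the start. Of 1035 sub-threshold promoter summits, 691 were upstream of the nearest start (66.8%), against 951 of 1136 IDR summits (83.7%), a difference of -17.0 points (-20.5 to -13.4). The 932 IDR peaks of lowest signal had 83.2%. By signal step within the sub-threshold peaks the upstream share was 60.8%, 67.6%, 70.3% and 71.7%, and it was 45.8% for weaker peaks in both replicates. The median distance to the nearest start was 96 bp for sub-threshold and 104.5 bp for IDR summits, and 52.0% and 48.2% lay within 100 bp, a difference of 3.83 points (-0.381 to 8.02). A divergent pair of genes with both starts within 500 bp was found at 294 sub-threshold promoter peaks (28.4%), against 429 IDR peaks (37.8%), a difference of -9.36 points (-13.3 to -5.40). Promoter summits in coding sequence numbered 70 (6.76%), against 6 IDR summits (0.528%).

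**Figure D4:**
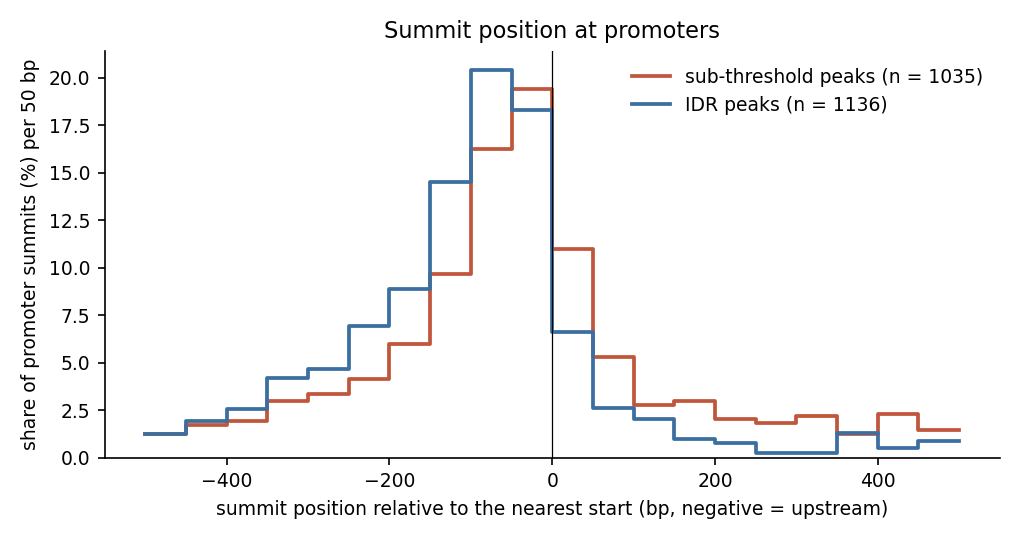
Position of promoter summits relative to the nearest start (x axis, bp, negative is upstream) as the share of promoter summits per 50 bp (y axis, %), for 1035 sub-threshold and 1136 IDR peaks. Sub-threshold summits were upstream in 66.8% and IDR summits in 83.7%, so the sub-threshold line lies mostly higher downstream of the start.

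The chromosomes differed little, except for the X outside promoters. All sub-threshold peaks lay on 2L, 2R, 3L, 3R, 4 and X. The X held 346 (15.8%), against 350 IDR peaks (18.8%), a difference of -2.97 points (-5.32 to -0.637), and it is 17.6% of the length of the 6 chromosomes. Against the 932 IDR peaks of lowest signal the interval of the difference, -5.43 to 0.392, held 0. Arms 2L, 2R, 3L and 3R held 399, 400, 482 and 556 sub-threshold peaks, 16.9 per Mb over the 4, and the X held 14.7 per Mb, where IDR peaks had 13.8 and 14.9 per Mb. The X share at promoters was 15.3% for sub-threshold and 15.2% for IDR peaks. Outside promoters it was 16.3% (188 of 1155), against 24.3% (177 of 729), a difference of -8.00 points (-11.8 to -4.28). Among introns the shares were 20.5% and 27.4%, a difference of -6.94 points (-11.8 to -2.11). In intergenic sequence they were 8.73% and 14.2%, and the interval of that difference, -12.3 to 0.540 points, held 0. Outside promoters, the share of X among the weaker peaks was 12.1%, and over the 4 signal steps of the sub-threshold peaks 14.4%, 17.7%, 16.6% and 18.4%.

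Chromosome 4, a small and mostly heterochromatic chromosome, had 7 sub-threshold peaks and 9 IDR peaks. Its sub-threshold peaks had as nearest genes fuss, a Ski and Sno family gene (2 peaks), myo, a TGF-beta ligand gene (in its 5' UTR), Sox102F (2 overlapping peaks at the promoter), Gyf (promoter) and Actbeta, an activin ligand gene (intron). Sox102F had 16.2 in replicate 1, where it ranked 9259, and 52.9 in replicate 3, where it ranked 1004.

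The gene with the most sub-threshold peaks nearest to it was Eip75B, an ecdysone-induced nuclear receptor, with 7, and pyd, a ZO-1 type protein of cell junctions, also had 7. Eip75B had 6 in introns and 1 in intergenic sequence, and pooled signals from 40.2 to 56.7. Bicra and CG13898 had 6 each, and CG1888, Mnt (a Myc antagonist), Pli, RFeSP, hry (hairy, a pair-rule bHLH repressor) and wake (a sleep gene) had 5 each. At Bicra, CG1888 and Pli these counts include overlapping peaks that shared replicate peaks. A further peak counted for Pli lay 30548 bp from its start, in a U1 snRNA gene. All 6 peaks of CG13898 were intergenic, 1865 to 22770 bp from its start. Those of RFeSP were intergenic or in exons of a long non-coding RNA, 1843 to 15619 bp from its start. The counts were not set against gene length. All 5 sub-threshold peaks nearest to hry were intergenic, between 512 and 20824 bp away, and the nearest had 28.4 in replicate 1 and 27.05 in replicate 3. The 2190 peaks had 1787 nearest genes, and 1473 of these had 1 peak. Of the genes with the most peaks of both sorts, CHES-1-like, a forkhead gene, had 4 sub-threshold and 9 IDR peaks, Myc 3 and 6, and shn, a zinc finger gene of the Dpp pathway, 3 and 6. The 3 sub-threshold peaks of Myc lay 17880 to 30455 bp from its start, and the intronic ones were in introns of CG12535 and a long non-coding RNA. The distance from a sub-threshold summit to the nearest IDR summit was 13597 bp at the median and 391 bp at the least, and 581 of 2190 (26.5%) were within 5000 bp.

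Of 13945 protein-coding genes on these chromosomes, 1609 had a sub-threshold summit within 1000 bp of a start (11.5%), against 1727 with an IDR summit (12.4%). Both were found at 194 genes, which is 12.1% of the genes with a sub-threshold summit and 11.2% of those with an IDR summit. Over all genes the shares with an IDR and with a sub-threshold summit were 12.4% and 11.5%. The rule had left out 82 peaks of the signal range because they overlapped an IDR peak, which lowers the sharing of genes. Whether the sets share genes more or less often than unrelated sets would can therefore not be told from these shares. Among the 12218 genes without an IDR summit 1415 had a sub-threshold summit (11.6%). The median distance of a sub-threshold summit to a protein-coding start was 633.5 bp, against 270 bp for an IDR summit, and 18.3% lay farther than 5000 bp, against 12.1%.

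**Figure D5:**
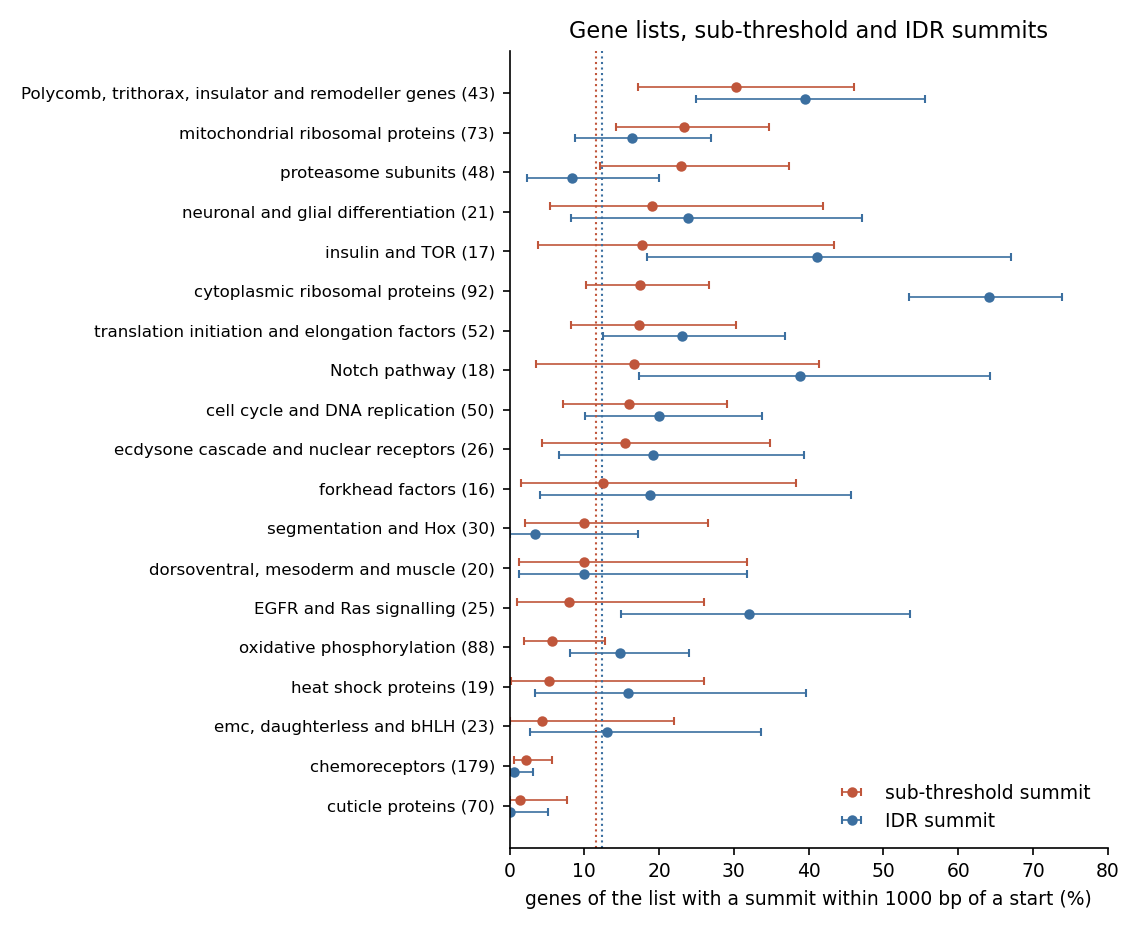
Genes of each list (number in parentheses) with a summit within 1000 bp of a start (x axis, %), for sub-threshold (red) and IDR (blue) summits, with exact 95% intervals; dotted lines mark 11.5% and 12.4% of all protein-coding genes. Cytoplasmic ribosomal protein genes had 17.4% and 64.1%, and proteasome subunit genes 22.9% and 8.33%. Lists with fewer than 15 genes are not drawn.

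Gene lists for pathways of embryogenesis and for general cell function were read against these shares. Proteasome subunit genes had a sub-threshold summit in 11 of 48 (22.9%, 12.03 to 37.3), against an IDR summit in 4 (8.33%). None of the 11 had both, beside 12.1% of all genes with a sub-threshold summit, too few genes to tell a difference. Prosbeta1, a catalytic subunit, had 28.5 in replicate 1 and 30.5 in replicate 3, and Rpn8, a regulatory particle subunit, had 27.1 and 33.2. Mitochondrial ribosomal protein genes had one in 17 of 73 (23.3%, 14.2 to 34.6), against 12 with an IDR summit (16.4%). The strongest was mRpL4, with 32.2 and 36.7. Polycomb, trithorax, insulator and remodeller genes had one in 13 of 43 (30.2%, 17.2 to 46.1), against 17 with an IDR summit (39.5%), among them E(z), the histone methyltransferase of Polycomb, at 28.7 and 33.7, and dom, a remodeller of the SWR1 type, at 20.1 and 47.9. Of 22 lists, these 3 and the list of Myc and related bHLH-zipper genes, with 4 of 9 (Max, Mondo, SREBP and Mnt; 44.4%, 13.7 to 78.8), had a lower limit above 11.5%, the share over all genes. The intervals of the 22 lists were not adjusted for their number. The summits counted for Max, Mondo and SREBP lay 181, 794 and 323 bp from the starts of these genes. Starts of other genes were nearer, at 39, 22 and 43 bp. The summit counted for Mnt had Mnt as its nearest gene, at 298 bp. Some peaks counted for more than 1 gene: that in a coding exon of mRpL39 was counted for Prosbeta2 as well.

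Cytoplasmic ribosomal protein genes had a sub-threshold summit in 16 of 92 (17.4%, 10.3 to 26.7), an interval that holds 11.5%, against an IDR summit in 59 (64.1%). Of the 33 of these genes with no IDR summit, 13 had a sub-threshold one (39.4%, 22.9 to 57.9), against 11.6% over all genes without an IDR summit. RpS18 had 23.6 in replicate 1 and 38.2 in replicate 3, RpS30 had 19.7 and 36.7, and a peak in an intron of CG5854, with its summit 949 bp from the start of RpS19b, had 28.8 and 24.3. The first 2 were higher in replicate 3 and the last in replicate 1.

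The other lists had intervals that held 11.5% or lay below it. Translation initiation and elongation factor genes had 9 of 52 (17.3%), cell cycle and DNA replication genes 8 of 50 (16.0%), and oxidative phosphorylation genes 5 of 88 (5.68%). Segmentation and Hox genes had 3 of 30, and the 3 were hry, pb and cad. Chemoreceptor genes had 4 of 179 (2.23%) and cuticle protein genes 1 of 70 (1.43%). For chemoreceptor and cuticle protein genes the upper limits, 5.62% and 7.70%, were below 11.5%. EGFR and Ras pathway genes had 2 of 25, RasGAP1 and aop (the Ets repressor Yan), and both had an IDR summit as well. Notch pathway genes had 3 of 18 (Su(H), the DNA-binding factor of the pathway, mam, its coactivator, and Su(dx)), none of them with an IDR summit. Of all genes with a sub-threshold summit, 12.1% had an IDR summit too, and these 2 lists have too few such genes to compare with that share. The 1 gene of the emc, daughterless and bHLH list with a sub-threshold summit was Oli, of 23.

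The shares of the following lists ran from 5.26% for heat shock protein genes to 19.05% for neuronal and glial genes, and the interval of each held the 11.5% of all genes. Neuronal and glial genes had 4 of 21, led by cpo (17.0 in replicate 1 and 41.02 in replicate 3), and ecdysone cascade and nuclear receptor genes 4 of 26, led by tai, a nuclear receptor coactivator (22.97 and 37.4), and Hnf4 (26.7 and 31.2). Insulin and TOR genes had 3 of 17, which were Akt, Rheb and InR. Dorsoventral and muscle genes had 2 of 20 (htl, an FGF receptor, and dl, the Dorsal factor), and forkhead genes 2 of 16 (FoxK and CHES-1-like). BMP genes had 1 of 13 (Med, the Smad4 gene), Enhancer of split genes 1 of 11 (E(spl)m7-HLH, 15.1 and 41.6) and heat shock protein genes 1 of 19 (Hsp22, 21.6 and 33.2).

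At emc itself no sub-threshold summit lay within 1000 bp of a start. Within 20 kb were 5, of which 2 had emc and 3 had hng3 as the nearest gene, with pooled signals from 41.3 to 59.7, and the strongest had 20.5 in replicate 1 and 33.0 in replicate 3. Arm 3L, which holds emc, had 17.1 sub-threshold peaks per Mb. Counts around other genes, and of IDR peaks near emc, are not given here, so whether 5 is unusual cannot be told. Of other feature types, tRNA genes lay within 500 bp of 8 sub-threshold and 5 IDR summits, and snRNA genes within 500 bp of 5 and 0. The 5 were at genes for U6, U2, 7SK, U1 and U5 snRNA, with pooled signals of 62.7, 56.5, 49.5, 48.0 and 43.0. The sub-threshold share was 0.228% (0.0742 to 0.532), and 0 of 1865 has an exact upper limit of 0.198%, so the intervals overlapped. The snRNAs are multi-copy genes, whose reads the authors' mapping could split between copies, and this was not tested.

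The same windows, 100 bp to either side of a summit and both strands, were searched for short motifs, as a description and not as sites. The motifs were DRE (TATCGATA), the E-box (CANNTG), its form CAGCTG, which is also counted as an E-box, and the core GGTCACA of the factor M1BP. Further ones were GAGAG, bound by GAGA factor, the core promoter sequence TATAAA, and the sequence CAGGTA, which the early activator Zelda is known to bind. E-boxes, the sites of bHLH dimers, were in 63.3% of sub-threshold windows, 63.4% of IDR windows and 64.0% of the windows of all 19252 protein-coding starts. DRE was in 4.20%, against 5.31% of IDR and 6.45% of start windows, and at promoters in 8.50%, against 8.45%. CAGCTG was in 12.2%, against 10.3% of IDR and 13.4% of start windows, and GAGAG in 23.7%, against 23.9% and 24.99%. For these 4 the interval of the difference between all sub-threshold and all IDR windows held 0. Outside promoters, though, CAGCTG was in 9.09% against 6.31% of IDR windows, a difference of 2.78 points (0.262 to 5.15). At promoters it was in 15.7% against 12.9%, and that interval, -0.0478 to 5.87 points, held 0. The TATAAA share was 22.97% against 29.5% of IDR windows, a difference of -6.52 points (-9.24 to -3.81), and 26.9% of start windows held it. CAGGTA was in 6.07% against 3.86% of IDR windows, a difference of 2.21 points (0.869 to 3.55), and in 4.26% of start windows. GGTCACA was in 4.93%, against 3.65% of IDR and 7.04% of start windows, and at promoters in 8.89%, against 5.28% (3.61 points, 1.45 to 5.82). These 7 motifs were compared without adjustment, and GC differed between the sets.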

How the data were processed

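Peaks of eGFP-tagged emc in whole Drosophila embryos were taken from lists in narrowPeak form, as deposited. Listings that accompany the samples describe relaxed lists (peaks and background) on dm6, 1 for each replicate and 1 for the replicates pooled, and a list cut by IDR. Both replicates used 1 control alignment, which was not analysed here. Which aligner, caller and IDR cutoff were used is not given in the sources used here. Peak signal is the authors' value, of a scale that is not stated, and its −log10 q-value is also the authors'. Read depth is unknown. Each replicate list held exactly 30000 peaks, so a peak missing from 1 may lie beyond its end.

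A summit took the first class that applied: promoter (within 500 bp of a start), an exon class (5' UTR, coding, 3' UTR or non-coding RNA), intron, otherwise intergenic. Gene models were those of Ensembl release 115 (annotation 6.54) without transposable elements, and sequences those of Release 6. The nearest protein-coding start names a peak, but a list gene was counted by its own start within 1000 bp of a summit, even where another start was nearer. Named peaks were those highest in pooled signal or in the worse of both replicate ranks, those at the bounds, the best of each class, those of chromosome 4, the genes with the most peaks and the strongest 3 of each list. Of the list symbols 5 had no match and were left out. The members and lists were chosen with earlier results of these data known. Shares carry exact 95% intervals. Python 3.11.15 with pandas 2.3.3, numpy 2.4.6 and scipy 1.17.1 was used, and the interval, overlap and motif steps were tested on simulated data.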

Additional observations from a re-analysis of the deposited data

How the results depend on the processing

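The 2190 peaks and their shares depended on the floor of the signal, and the class shares also on the promoter window. Requiring each replicate peak to cover at least 0.5 of the pooled peak, or a pooled summit inside a peak of each replicate, moved no result outside its interval. Keeping 1 peak per locus was run for the promoter share (46.9%) and the coding share (5.10%) only. That alternative, and all those for the X outside promoters, upstream summits and gene lists, were chosen after seeing the data. With a floor of 50 there were 827 peaks at 671 genes, with a promoter share of 50.2%, coding exons 1.45%, introns 33.5% and mean GC 40.1%, and 71.1% of promoter summits upstream. With a floor of 30 there were 5586 peaks at 3089 genes, with a promoter share of 37.6% (difference from IDR peaks -23.4 points), coding exons 13.5%, an X share of 14.1%, an X share outside promoters of 13.3%, mean GC 44.6% and 58.2% of promoter summits upstream. A promoter window of 250 bp gave promoter 37.7%, coding 7.03%, intron 35.02% and intergenic 14.98%, and one of 1000 bp gave 59.0%, 3.24%, 25.3% and 10.1%. The window sets these shares by its size, and the cause of the other shifts was not tested. Against the 932 IDR peaks of lowest signal the promoter difference was -10.1 points.

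Without replicate 1 or without replicate 3 the number was 2208 to 2381, the promoter share 47.2 to 47.9%, coding 4.91 to 5.21%, intron 31.1 to 31.2%, intergenic 12.3 to 12.6%, X 15.6 to 15.9%, X outside promoters 16.0 to 16.2%, upstream 66.1 to 66.6%, the promoter difference -13.7 to -13.03 points, genes 1620 to 1746 and GC 41.4 to 41.6%. Leaving out a replicate here dropped only the need to overlap a peak in it. It added the 191 peaks found in replicate 3 only or the 18 found in replicate 1 only. The pooled signal and the IDR list still came from both replicates, so these ranges cannot show what a single replicate would give. The promoter difference, the only result with a sign, did not reverse in any alternative. Of 91 alternatives 66 stayed within the interval or, for counts, within 1.5 times. Of 88 alternatives for gene lists 25 moved a list's count beyond 1.5 times, mostly the floor of 50, which leaves fewer peaks: the list of Polycomb, trithorax, insulator and remodeller genes then had 5 genes, proteasome subunits 4, mitochondrial ribosomal proteins 4 and Myc and bHLH-zipper genes 2, beside 671 of all 13945 genes. The dm3 lists gave 2166 peaks. No paired analysis was possible because the samples form 1 group. Read depth, which limits how many weak peaks could be found, is not given.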

Other observations

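In the dm3 lists the same rule gave 2166 peaks below a bound of 62.9, and 339 were on the X. Of these, 2 lay outside the 6 chromosomes, 1 on 3LHet and 1 on 3RHet. Of the sub-threshold peaks in dm6, 6 had a summit inside an annotated transposable element, 5 of them INE-1, with pooled signals from 40.8 to 50.02, and 1 an FB element with 41.2. IDR peaks had 3.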
